A study of Homo sapiens with 6 samples.

Results

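The 54 genes described here encode WNT ligands, their receptors and the secreted or membrane proteins that modify the signal at the cell surface. They were chosen by symbol from the 58735 genes of the count table, with no use of their measured values. The set holds 19 WNT ligands, 2 proteins that acylate or export them, 10 Frizzled receptors, 2 LRP co-receptors, 4 further receptors or co-receptors (ROR1, ROR2, RYK and PTK7), 4 R-spondins, 2 LGR receptors, 6 secreted WNT-binding inhibitors, 3 Dickkopf proteins and 2 Kremen proteins. RNA-Seq was performed in BT549, a human breast cancer cell line of basal-like type, 48 h after addition of DMSO (3 libraries) or of AS1842856 (3 libraries). AS1842856 is a small-molecule inhibitor of FOXO1, a forkhead transcription factor held back by insulin and AKT signaling. The study's text proposes that the compound modulates FOXO1 rather than only inhibiting it. There, RNA interference against FOXO1 lowered LEF1 in BT549 and U87MG cells, whereas the compound, read at a later time, raised LEF1 in both lines. The study also found lower LEF1 after FOXO1 disruption in U87MG cells. A FOXO1 mutant deficient in DNA binding restored TCF7 in the disrupted cells. SOD2, INSR and GADD45A, known to be induced by FOXO1, were reported lower with the compound. The comparison asks which genes changed with this compound, and loss of FOXO1 itself was not measured in these libraries. The sample labels give a dose of 200 nM, and the study's text gives another, which was not resolved here. Every library came from this 1 cell line with no genetic change, and the study calls the replicates biological. The labels do not say whether they were separate cultures, and p-values measure the spread between these libraries. In whole-culture RNA, fewer cells of a kind and less RNA per cell cannot be told apart.

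WNT proteins are lipid-modified in the endoplasmic reticulum by PORCN and carried to the surface by WLS. Bound to a Frizzled receptor together with LRP5 or LRP6 they stabilize beta-catenin, which enters the nucleus and acts with TCF/LEF factors, whereas binding to Frizzled with ROR, RYK or PTK7 feeds beta-catenin-independent branches that control polarity, migration and calcium. R-spondins acting through LGR receptors keep Frizzled receptors at the surface, SFRP proteins and FRZB bind WNT ligands outside the cell, and several Dickkopf proteins block LRP co-receptors with the help of Kremen.

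The 6 libraries held between 15289500 and 22981832 counts, and no pair of replicates was alike within counting noise, so each library was used as 1 sample. Levels below are TMM-normalized CPM (counts scaled to a common library size) when 1 gene is compared between groups. Deposited FPKM, which is also divided by gene length, is used when different genes are compared. That length was close to all annotated exons of a gene together (ratio 1.005), whichever transcripts were expressed. Orders of genes by FPKM depend on it, and the spread of libraries does not measure that error. Genes were called by edgeR's quasi-likelihood test where the p adjusted over all 14338 genes tested was below 0.05. For 1 gene on its own, 3 libraries against 3 allow an exact permutation p (two-sided) no smaller than 0.1. The 8 mesenchymal markers checked were all detected, with a sum of 5041 to 5179 CPM in DMSO and 4283 to 4354 CPM with AS1842856. Of these, 6 were lower, AXL most (log2 difference -1.65), and FN1 (1.13) and ZEB1 (0.50) were higher. The luminal markers ESR1, PGR and CDH1 were at or near 0 in every library, and the sum of the 10 luminal markers was 129.0 to 133.1 CPM in DMSO and 75.2 to 83.5 CPM with AS1842856. In that list KRT8 (-3.31) and KRT18 (-3.30) fell most, and KRT19 (1.61) and GATA3 (0.28) rose. Luminal markers were thus not all absent. GATA3 had a mean of 50.9 CPM in DMSO and 61.7 CPM with AS1842856. Mean KRT8 went from 40.9 to 4.15 CPM and mean KRT18 from 33.9 to 3.45 CPM. The 6 leukocyte markers summed to between 1.18 and 2.15 CPM in DMSO and between 3.55 and 4.71 CPM with AS1842856, with CD3E at 0 throughout. PTPRC, the only leukocyte marker tested, rose from a mean of 1.15 to 3.16 CPM (log2 difference 1.48, adjusted p = 4.99e-07). The 4 endothelial markers summed to between 0.484 and 1.05 CPM and between 1.23 and 1.68 CPM. The part of these marker differences in the results below was not tested.

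Enough reads for a test were found in 30 of the 54 genes and not in the other 24. Among the 30 tested, 21 were called (70.0%), where 56.0% of all genes tested were called. AS1842856 raised 8 of the 30, or 26.7%, beside 27.6% of all genes, and lowered 13, or 43.3%, beside 28.4%. Log2 changes of 1 or more in size were found in 11 of the 30 (36.7%, against 10.6% of all genes), upward in 3 (10.0% against 4.27%) and downward in 8 (26.7% against 6.33%). The 3 large increases were DKK2, WNT5A and SFRP2. The 8 large decreases were WNT7B, FZD8, RSPO2, WNT2B, WNT5B, DKK3, FZD2 and LRP5. The groups did not overlap in 22 of the 30 (73.3%), beside 59.9% of all genes tested. The median log2 fold change of the 30 was -0.14, and that of all genes tested was 0.0030. DKK2 passed the filter through its AS1842856 libraries alone, and WNT2B had 10 or more counts in 3 DMSO libraries but in only 1 AS1842856 library, so a difference in these 2 genes was partly set by the filter.

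**Figure D1:**
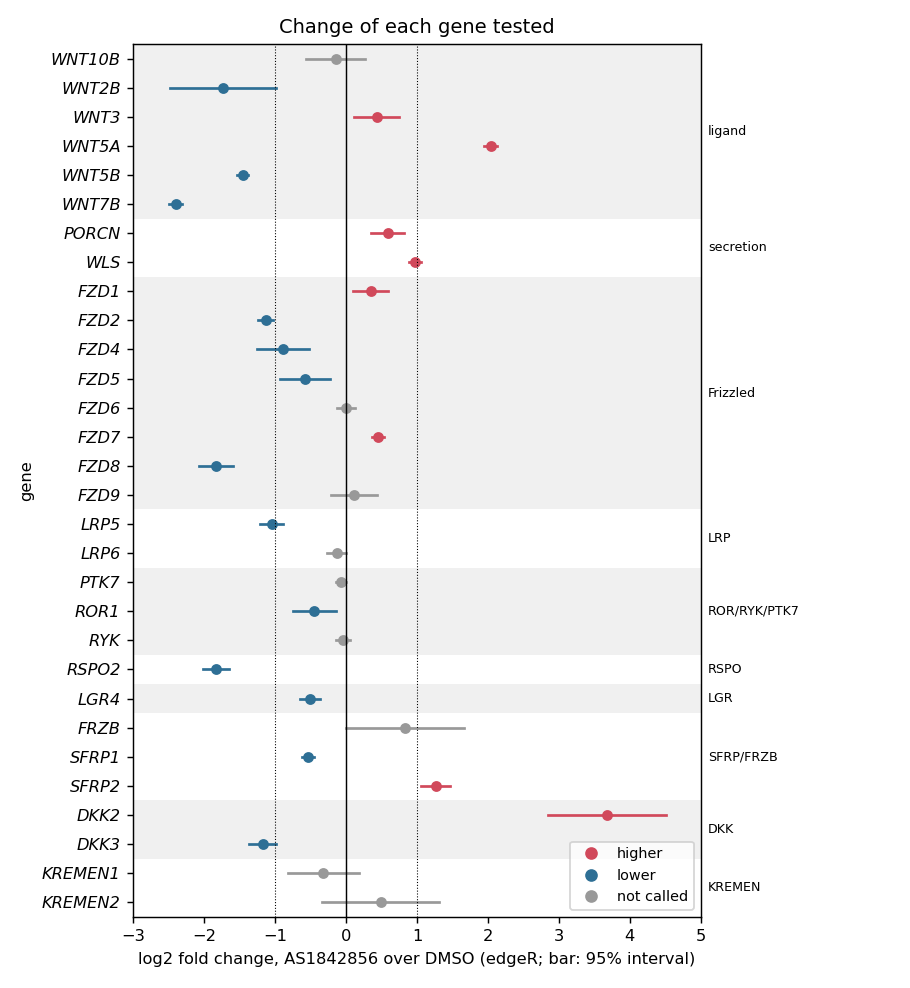
Log2 fold change (AS1842856 over DMSO, horizontal axis) of each of the 30 genes tested, in order of role, with bars for the 95% interval and dotted lines at a change of 1 in either direction. Called genes are red (8 higher) or blue (13 lower), and DKK2 at 3.67 and WNT7B at -2.40 lie farthest from 0.

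Among the ligands, 3 genes made up nearly all of the ligand RNA, and AS1842856 moved them in opposite directions. WNT5A, a ligand best known for beta-catenin-independent signaling, rose 4.10-fold, while its close relative WNT5B fell 2.75-fold and WNT7B, a ligand of epithelia that can signal through beta-catenin, fell 5.28-fold. WNT3 rose slightly, WNT2B fell from a low level, and WNT10B was not called.

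WNT5A (ENSG00000114251, chr3:55465715-55490539, minus strand) had 34.8, 38.5 and 42.0 CPM in DMSO replicates A, B and C and 157, 161 and 154 CPM with AS1842856. The groups lay far apart, with every treated library above every control. On the log2 scale WNT5A differed by 2.04 (standard error 0.05, adjusted p = 3.70e-107). WNT5B (ENSG00000111186, chr12:1529891-1647243, plus strand) had 282, 276 and 268 CPM in DMSO and 102, 101 and 98.2 CPM with AS1842856. All 3 treated libraries were well below the lowest control, and the difference was -1.46 (standard error 0.04, adjusted p = 1.10e-99). WNT7B (ENSG00000188064, chr22:45920362-45977129, minus strand) went from 214, 205 and 203 CPM to 40.7, 38.8 and 38.5 CPM. Its log2 difference of -2.40 (standard error 0.05, adjusted p = 9.59e-132) was the largest decrease among the 30 genes, and again the groups did not overlap. Another tool, DESeq2, gave log2 differences of 2.03 for WNT5A, -1.46 for WNT5B and -2.40 for WNT7B. The study had already reported these ligands in BT549, with the same directions. Its sizes for WNT5A and WNT7B were close to those here, but its fall of WNT5B was clearly smaller. The cause of that gap was not tested.

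Per length, WNT5B was the most abundant ligand in DMSO, with a mean of 63.6 ± 1.73 FPKM (SD, n = 3), followed by WNT7B with 40.8 ± 1.18 and WNT5A with 5.17 ± 0.481. With AS1842856 the order was WNT5B at 23.1 ± 0.435 FPKM, WNT5A at 21.1 ± 0.497 and WNT7B at 7.74 ± 0.248. Neighbors in both orders were farther apart than the spread of their libraries, which does not cover error from gene length. Summed over the 9 ligands listed in the FPKM tables, ligand RNA was 114.7, 111.5 and 110.0 FPKM in the DMSO libraries and 55.5, 55.5 and 53.6 FPKM in the AS1842856 libraries, so the mean sum was 2.04 times higher in DMSO. The share of that sum held by WNT5A was 4.09%, 4.63% and 5.14% in DMSO and 38.0%, 38.9% and 38.5% with AS1842856. WNT5B held 56.7% ± 0.446 in DMSO and 42.2% ± 0.182 with AS1842856, and WNT7B held 36.4% ± 0.332 and 14.1% ± 0.347 (SD, n = 3 per group). The ratio of WNT5A to WNT5B FPKM accordingly went from 0.0815 ± 0.0098 to 0.912 ± 0.015, and that of WNT5A to WNT7B from 0.127 ± 0.015 to 2.73 ± 0.101. WNT5B and WNT7B fell unequally, with a ratio of WNT5B to WNT7B FPKM of 1.56 ± 0.020 in DMSO and 2.99 ± 0.062 with AS1842856. These shares and ratios are descriptions of RNA and were given no test.

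**Figure D2:**
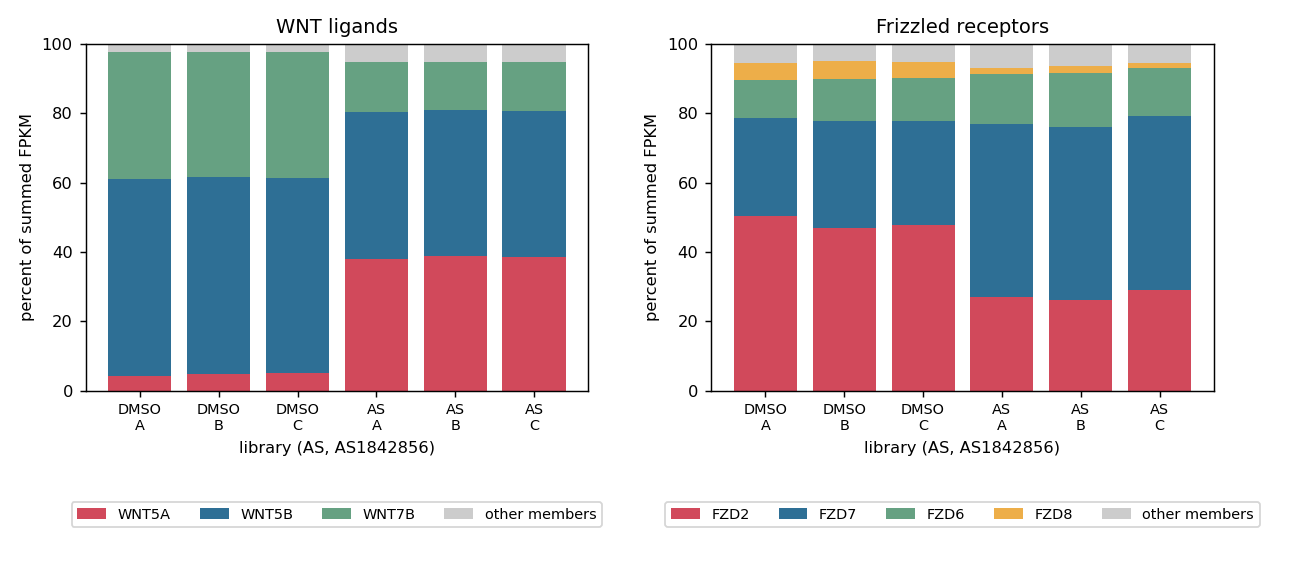
Percent of the summed FPKM of the WNT ligands (left) and of the Frizzled receptors (right) held by each gene in each of the 6 libraries, as stacked bars from 0 to 100%. In all 3 AS1842856 libraries WNT5A takes 38.0% to 38.9% of the ligand sum and FZD7 takes 50.1% to 50.2% of the Frizzled sum.

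Sequence upstream of WNT5A and WNT5B is shown because these related ligands moved in opposite directions and the compound targets a forkhead factor. The windows are the 250 bases before a RefSeq transcript start on GRCh38.p14, at chr3:55481399-55481648 on the minus strand for WNT5A and at chr12:1616806-1617055 on the plus strand for WNT5B. Capitals mark the forkhead motif GTAAACA, searched on both strands.

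WNT5A: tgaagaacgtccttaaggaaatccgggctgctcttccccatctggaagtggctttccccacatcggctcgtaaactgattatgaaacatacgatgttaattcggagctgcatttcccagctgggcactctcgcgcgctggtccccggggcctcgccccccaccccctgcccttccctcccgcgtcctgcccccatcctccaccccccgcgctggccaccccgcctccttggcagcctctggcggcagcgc

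WNT5B: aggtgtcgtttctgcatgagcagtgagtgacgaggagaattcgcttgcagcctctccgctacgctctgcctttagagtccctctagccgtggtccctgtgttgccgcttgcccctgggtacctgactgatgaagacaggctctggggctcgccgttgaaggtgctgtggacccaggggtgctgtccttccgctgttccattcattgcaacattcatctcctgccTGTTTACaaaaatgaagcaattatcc

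This WNT5B window held 1 match, on the reverse strand from position 225 (read here as TGTTTAC), and this WNT5A window held none. RefSeq gives each gene a second window, which is not printed and held no match in either gene, so the WNT5B window shown is the one with the match. Both windows shown lie inside the GENCODE gene, 9141 bases from its outermost start for WNT5A and 87165 bases for WNT5B. The WNT5B window falls in annotated exon sequence. RefSeq windows were at hand for 38 of the 54 genes, of which 18 were tested. These 18 genes had 24 windows, and the forkhead motif was found in 1 of the 24, that of WNT5B, and in 2.98% of 35116 promoter windows of the same length. The TCF/LEF motifs CTTTGA and CTTTGT, which overlap in their first 5 bases and were also searched on both strands, were each found in 1 of the 24 (of PORCN and of FZD1), beside 11.2% and 13.7% of all windows. A match describes letters in a window, and binding was not measured.

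The other tested ligands were much less abundant. WNT3, an activator of beta-catenin signaling, had 4.33, 5.08 and 4.57 CPM in DMSO and 7.14, 6.13 and 5.50 CPM with AS1842856. The treated libraries were all higher, although the lowest treated and highest control values were close, and the log2 difference was 0.43 (standard error 0.16, adjusted p = 0.0158). The WNT3 call was lost without DMSO replicate A (adjusted p = 0.0712), without AS1842856 replicate A (adjusted p = 0.115) and under DESeq2 (adjusted p = 0.0976). WNT2B had 1.82, 2.34 and 1.13 CPM in DMSO and 0.480, 0.657 and 0.393 CPM with AS1842856, a log2 difference of -1.74 (standard error 0.38, adjusted p = 2.21e-05). All treated libraries were below all controls, but 21.2% of the exon bases of WNT2B (2661 of 12561) overlap ST7L on the opposite strand, and the use of strand in counting is not given in the sources used here. ST7L had a mean of 11.1 CPM in DMSO and 11.8 CPM with AS1842856 (log2 difference 0.10, adjusted p = 0.484). Only 1 AS1842856 library held 10 or more WNT2B counts, so the WNT2B difference was partly set by the filter. WNT10B had 3.37, 3.0 and 3.44 CPM in DMSO and 2.58, 2.98 and 3.31 CPM with AS1842856. The groups overlapped and the gene was not called, with a log2 difference of -0.15 (95% interval -0.57 to 0.27, adjusted p = 0.574).

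The filter on low counts left out 13 of the 19 ligands. WNT11, a ligand of the polarity branch, had 11, 1 and 2 counts in DMSO and 6, 14 and 8 with AS1842856, where 14 was the highest count of any gene left untested. WNT9A had 0, 2 and 0 counts in DMSO and 4, 9 and 1 with AS1842856. WNT4, known from kidney and gonad development, had 3, 0 and 3 counts and then 4, 2 and 1. These 3 genes were near the limit of detection, and counts of this size cannot show a difference at this depth. WNT1, WNT6, WNT8B, WNT10A and WNT16 had at most 1 count in any library. WNT2, WNT3A, WNT7A, WNT8A and WNT9B had no counts in any library, and a count of 0 allows up to 3 counts by counting error alone. Of 4 neighboring pairs of ligand genes, WNT6 and WNT10A both reached 1 count at most, and WNT9A and WNT3A reached 9 and 0. WNT9B lies 46 bases from WNT3 on chromosome 17 and had no counts, where WNT3 reached 140 counts in a library. WNT1 lies 6689 bases from WNT10B on chromosome 12 and reached 1 count, where WNT10B reached 74.

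Both genes for ligand maturation and export rose. WLS (ENSG00000116729, chr1:68098473-68233120), the carrier that takes acylated WNT proteins to the surface, had 86.4, 92.7 and 89.1 CPM in DMSO and 175, 175 and 177 CPM with AS1842856. Levels in the 3 treated libraries were nearly equal and lay far above all controls, and the log2 difference was 0.97 (standard error 0.04, adjusted p = 2.06e-62), just under the limit of 1. PORCN, the acyltransferase, had 8.97, 7.55 and 9.26 CPM in DMSO and 11.9, 13.0 and 14.1 CPM with AS1842856. Its groups did not overlap either, with a difference of 0.59 (standard error 0.12, adjusted p = 3.50e-06). With AS1842856, WLS was the most abundant of all 30 genes per length, at 39.0 ± 0.228 FPKM, followed by FZD7 at 36.6 ± 0.895 FPKM. In DMSO, WLS had 19.9 ± 0.672 FPKM and lay below WNT5B, FZD2, WNT7B, SFRP1, FZD7 and PTK7.

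**Figure D3:**
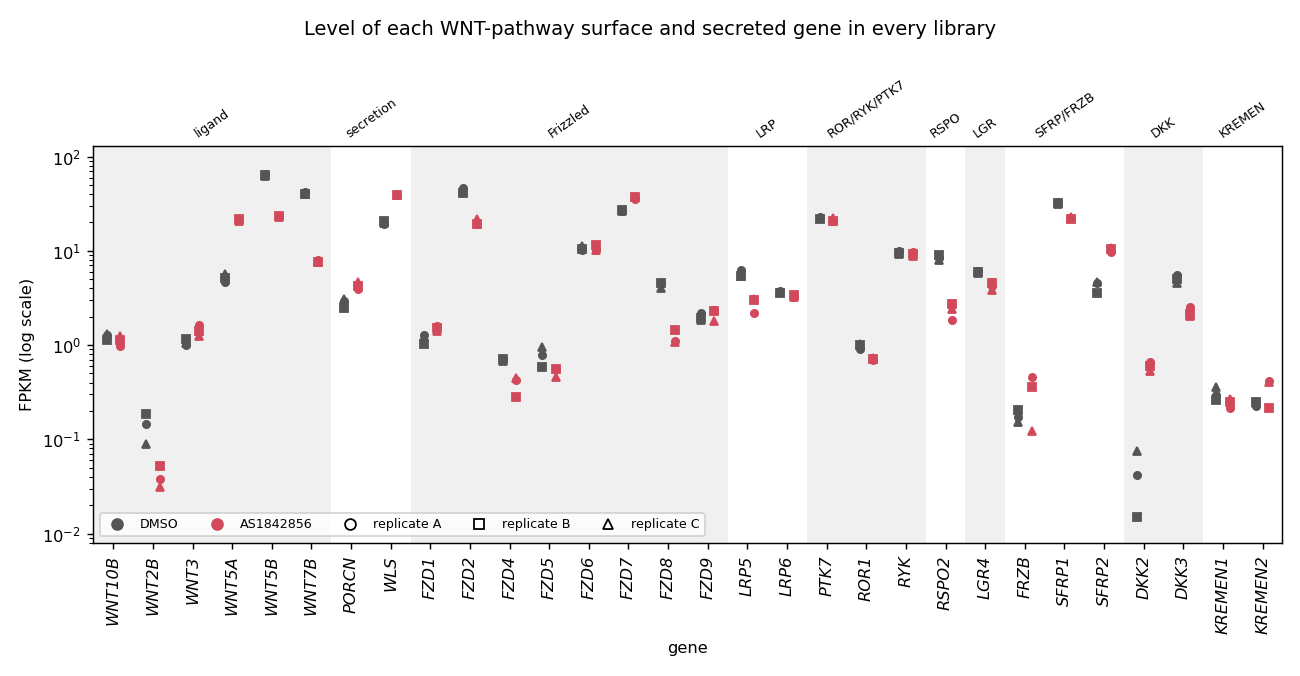
FPKM on a log axis of each of the 30 genes tested in every library, grouped by role, with DMSO in grey and AS1842856 in red and a symbol for each replicate letter. WNT5B is highest in DMSO (63.6 FPKM on average) and WLS with AS1842856 (39.0 FPKM), and the lowest single value is that of DKK2 in DMSO replicate B.

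Of the 10 Frizzled genes, which encode the WNT receptors, 8 were tested. FZD2, FZD4, FZD5 and FZD8 fell and FZD1 and FZD7 rose, whereas FZD6 and FZD9 were not called. Divided by gene length, the most abundant receptor RNA changed from FZD2 in DMSO to FZD7 with AS1842856. In CPM, without that division, FZD7 was above FZD2 in every library. The change of order thus depends on the lengths used.

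FZD2 (ENSG00000180340, chr17:44557459-44559570) had 99.7, 87.6 and 91.1 CPM in DMSO and 40.5, 40.8 and 46.0 CPM with AS1842856. The groups were well separated, with a log2 difference of -1.13 (standard error 0.05, adjusted p = 3.51e-54). FZD7 (ENSG00000155760, chr2:202034587-202038445), a receptor found at high levels in many basal-like breast cancers, had 103, 105 and 104 CPM in DMSO and 138, 144 and 145 CPM with AS1842856. Its rise was smaller than the fall of FZD2 but was seen in every library, with a log2 difference of 0.45 (standard error 0.04, adjusted p = 2.12e-21). Of the 50-base windows in FZD2, 2.67% occur unchanged in FZD1, FZD7 or FZD5, and reads there could have been split between these genes.

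Summed over 9 Frizzled genes, receptor RNA was 90.2 ± 2.84 FPKM in DMSO and 73.1 ± 1.82 FPKM with AS1842856, a ratio of 1.23. The share held by FZD2 was 50.4%, 47.0% and 47.9% in DMSO and 26.9%, 26.0% and 29.1% with AS1842856. FZD7 held 28.4%, 30.9% and 29.8% in DMSO and 50.2%, 50.1% and 50.1% with AS1842856. The ratio of FZD7 to FZD2 FPKM went from 0.615 ± 0.048 to 1.84 ± 0.103 (SD, n = 3 per group). By FPKM, FZD2 was the more abundant of the pair in each DMSO library and FZD7 in each AS1842856 library.

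FZD8 (ENSG00000177283, chr10:35638249-35642278) had the largest decrease of the family. It had 18.6, 18.4 and 16.4 CPM in DMSO and 4.50, 5.82 and 4.37 CPM with AS1842856, a log2 difference of -1.84 (standard error 0.12, adjusted p = 1.94e-35), and its share of the Frizzled sum went from 4.86% to 1.65%. FZD4, which is also the receptor for the ligand Norrin, had 5.33, 5.27 and 5.06 CPM in DMSO and 3.18, 2.10 and 3.31 CPM with AS1842856. All treated libraries were lower, with a difference of -0.89 (standard error 0.19, adjusted p = 1.36e-05). The FZD4 counts are uncertain, since 18.9% of its exon bases (1399 of 7383) overlap PRSS23 on the opposite strand. PRSS23 was far more abundant, with a mean of 148 CPM in DMSO and 44.4 CPM with AS1842856, with a log2 difference of -1.74 (adjusted p = 9.60e-99). The part of PRSS23 reads in the FZD4 change was not tested. FZD5 had 5.33, 3.97 and 6.40 CPM in DMSO and 3.78, 3.72 and 3.08 CPM with AS1842856. Its groups were separated by a narrow gap below DMSO replicate B, with a difference of -0.58 (standard error 0.18, adjusted p = 0.00311), and the call was lost without DMSO replicate C (-0.42, adjusted p = 0.0764), under DESeq2 (adjusted p = 0.0515) and under limma on FPKM (adjusted p from 0.122 to 0.167).

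FZD1 had 8.93, 7.23 and 8.56 CPM in DMSO and 11.2, 10.6 and 9.81 CPM with AS1842856. The treated libraries were all higher, with a difference of 0.34 (standard error 0.12, adjusted p = 0.0113), but the call was lost without DMSO replicate B (adjusted p = 0.0887) or AS1842856 replicate A (adjusted p = 0.0547), under DESeq2 (adjusted p = 0.0741) and under limma on FPKM (adjusted p from 0.0542 to 0.0869). FZD6, a receptor linked to planar polarity, had between 41.8 and 46.2 CPM in DMSO and between 41.8 and 46.8 CPM with AS1842856. The FZD6 groups overlapped completely, with a log2 difference of -0.00029 (95% interval -0.12 to 0.12, adjusted p = 0.997) whose sign turned under another scaling. FZD9 ranged from 4.31 to 5.19 CPM in DMSO and from 4.26 to 5.52 CPM with AS1842856, with a difference of 0.11 (95% interval -0.22 to 0.44, adjusted p = 0.600). FZD3 had 0, 0 and 3 counts in DMSO and 4, 9 and 4 with AS1842856 and was not tested, and FZD10 had no counts.

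The LRP co-receptors, which are needed for beta-catenin signaling, differed from each other. LRP5 (ENSG00000162337, chr11:68312609-68449275) had 38.9, 33.6 and 33.7 CPM in DMSO and 13.7, 18.6 and 19.0 CPM with AS1842856. Every treated library was below every control, with a log2 difference of -1.05 (standard error 0.08, adjusted p = 4.65e-24), with a range of -1.12 to -0.92 over the fits that each left out 1 library. LRP6 had 38.6, 37.0 and 37.8 CPM in DMSO and 34.0, 35.7 and 33.7 CPM with AS1842856. The LRP6 groups did not overlap, but the difference was small at -0.13 (95% interval -0.26 to -0.0021) and the gene was not called (adjusted p = 0.0784). Per length, LRP5 was more abundant than LRP6 in each DMSO library and less abundant in each AS1842856 library. The ratio of LRP6 to LRP5 FPKM was 0.591, 0.656 and 0.670 in DMSO and 1.48, 1.15 and 1.06 with AS1842856.

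Of the receptors of the beta-catenin-independent branches, ROR1 fell and PTK7 and RYK were not called. PTK7, a pseudokinase that serves as a co-receptor in planar polarity, had 208, 200 and 200 CPM in DMSO and 187, 191 and 202 CPM with AS1842856. These groups overlapped and PTK7 was not called (difference -0.07, 95% interval -0.15 to 0.0023, adjusted p = 0.0939), although it was called without AS1842856 replicate C (-0.11, adjusted p = 0.0302). RYK, a receptor with an inactive kinase domain, had between 75.6 and 80.2 CPM in DMSO and between 71.7 and 78.5 CPM with AS1842856, a difference of -0.04 (95% interval -0.14 to 0.056, adjusted p = 0.50). ROR1, a receptor for WNT5A, had 6.15, 6.84 and 6.94 CPM in DMSO and 4.74, 4.86 and 4.93 CPM with AS1842856. All treated libraries of ROR1 were lower, with a log2 difference of -0.45 (standard error 0.16, adjusted p = 0.00874). That call was lost under DESeq2 (adjusted p = 0.0582) and under limma on FPKM (adjusted p from 0.0525 to 0.0561). ROR2, the other receptor of this pair, had no counts. At 21.3 ± 0.840 FPKM with AS1842856, PTK7 and WNT5A (21.1 ± 0.497 FPKM) did not differ beyond the spread of their libraries.

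Of the R-spondin arm only RSPO2 and LGR4 were tested, and both were lower. LGR5 is not among the 54 genes. RSPO2 (ENSG00000147655, chr8:107899316-108083648), a secreted amplifier of WNT signaling, had 34.7, 37.1 and 33.2 CPM in DMSO and 7.62, 11.4 and 9.93 CPM with AS1842856. The treated libraries did not come near the controls, and the gene fell 3.57-fold, a log2 difference of -1.84 (standard error 0.09, adjusted p = 1.63e-49). LGR4, its receptor, had 39.3, 38.5 and 37.4 CPM in DMSO and 26.7, 29.1 and 24.8 CPM with AS1842856. The change of LGR4 was smaller, at -0.51 (standard error 0.07, adjusted p = 3.42e-11), with no overlap between groups. RSPO3 had 9, 2 and 5 counts in DMSO and 1, 5 and 1 with AS1842856, and LGR6 had no counts in DMSO and 1, 3 and 4 with AS1842856. Neither was tested. RSPO1 and RSPO4 had no counts. ZNRF3, the surface ubiquitin ligase that R-spondins and LGR receptors remove, is not among the 54 genes and was singled out after its values were seen. It had 25.1, 23.4 and 21.1 CPM in DMSO and 78.4, 83.7 and 85.2 CPM with AS1842856, a log2 difference of 1.83, and RNF43, the related ligase, had no counts.

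Among the secreted WNT-binding inhibitors, SFRP2 rose and SFRP1 fell. SFRP2 (ENSG00000145423, chr4:153780592-153789120) had 9.34, 7.29 and 9.53 CPM in DMSO and 19.8, 21.5 and 21.9 CPM with AS1842856, a log2 difference of 1.26 (standard error 0.10, adjusted p = 1.52e-25). SFRP1 (ENSG00000104332, chr8:41261958-41309497) had 159, 155 and 150 CPM in DMSO and 106, 105 and 110 CPM with AS1842856, a difference of -0.54 (standard error 0.04, adjusted p = 3.38e-28). In both genes the groups were apart in every library. SFRP1 remained the more abundant of the pair per length, with 32.3 ± 0.977 FPKM in DMSO and 22.3 ± 0.512 FPKM with AS1842856, while the ratio of SFRP2 to SFRP1 went from 0.132 ± 0.019 to 0.462 ± 0.023. FRZB had 0.547, 0.651 and 0.484 CPM in DMSO and 1.44, 1.14 and 0.393 CPM with AS1842856. Its AS1842856 replicate C was below all controls and the other replicates were above them. FRZB was not called (difference 0.83, 95% interval -0.0030 to 1.66, adjusted p = 0.0848), but was called without AS1842856 replicate C (1.19, adjusted p = 0.0203). SFRP5 had at most 1 count in a library, and SFRP4 and WIF1 had none.

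DKK2 and DKK3, of the Dickkopf family of secreted proteins, moved in opposite directions. DKK1, of the same family, is not in the set described here. DKK2 (ENSG00000155011, chr4:106921802-107283806), a ligand of LRP5 and LRP6, had 4, 1 and 6 counts in DMSO and 48, 59 and 41 counts with AS1842856, or 0.182, 0.0651 and 0.323 CPM against 2.88, 2.58 and 2.30 CPM. It was nearly undetected in the controls, and low but present in every treated library. The fitted log2 difference of 3.67 (standard error 0.42, 95% interval 2.84 to 4.51, adjusted p = 4.00e-15) was the largest of the 30 genes. With each library left out it ran from 3.35 to 4.20. DKK2 passed the filter through its AS1842856 libraries alone, so this difference was partly set by the filter. DKK3 (ENSG00000050165, chr11:11963106-12009769), a divergent member of the family, had 28.0, 25.7 and 23.0 CPM in DMSO and 12.8, 10.9 and 10.4 CPM with AS1842856. All treated libraries were below all controls, with a difference of -1.18 (standard error 0.10, adjusted p = 1.26e-26). DKK3 nevertheless stayed more abundant per length than DKK2 with AS1842856, at 2.23 ± 0.249 FPKM against 0.596 ± 0.068 FPKM. DKK4 had at most 1 count in a library.

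The Kremen genes, whose products bind Dickkopf proteins, were low and not called. KREMEN1 ranged from 2.08 to 2.91 CPM in DMSO and from 1.74 to 2.13 CPM with AS1842856 (difference -0.32, 95% interval -0.82 to 0.18, adjusted p = 0.281). KREMEN2 ranged from 0.592 to 0.651 CPM in DMSO and from 0.569 to 1.08 CPM with AS1842856 (difference 0.49, 95% interval -0.33 to 1.32, adjusted p = 0.326). These intervals are wide, and changes of moderate size were not detectable at this depth. Of the KREMEN2 exon bases, 13.8% overlap PKMYT1 on the opposite strand, which had a mean of 97.2 CPM in DMSO and 87.7 CPM with AS1842856.

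**Figure D4:**
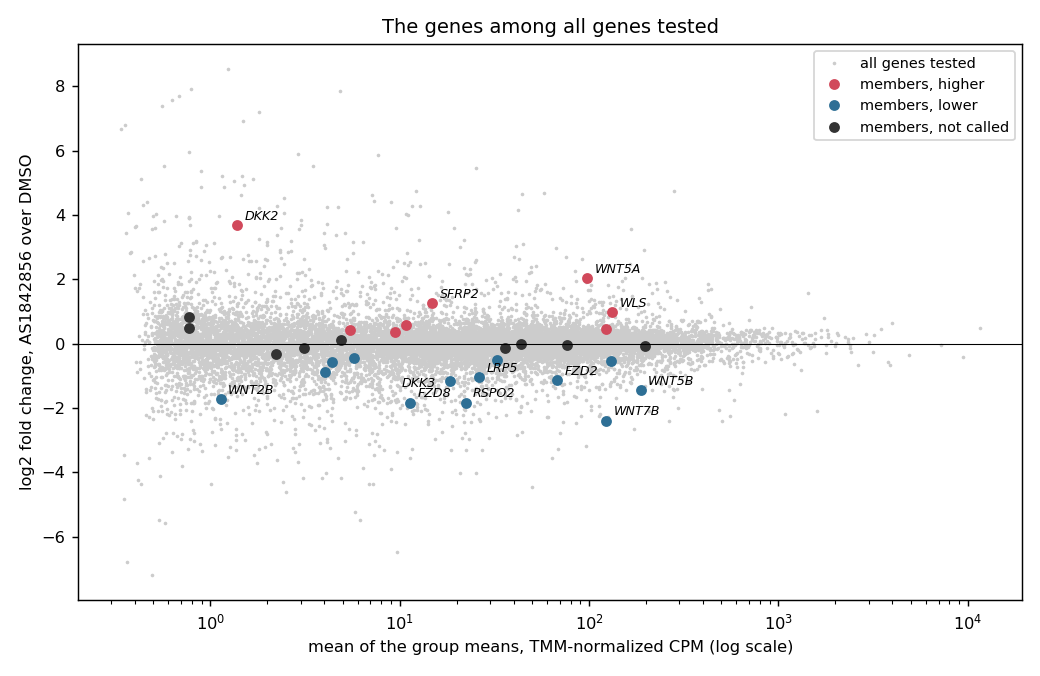
Log2 fold change (AS1842856 over DMSO, vertical axis) against mean level in CPM on a log axis for all 14338 genes tested (light grey), with the 30 genes of the WNT surface set in color. WNT5A at 2.04 and WNT7B at -2.40 stand out at high levels, and DKK2 at 3.67 at a low level.

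For the rest of the pathway, 4 lists of other genes were read in the same fit. Of 25 other extracellular and surface regulators, 15 were tested, 4 were higher, 8 were lower and 3 were not called, with a median log2 fold change of -0.32. NOTUM, a secreted enzyme that removes the lipid from WNT proteins, changed by 3.37, CTHRC1, a secreted protein that favors binding of WNT ligands to Frizzled and ROR2, by 2.05, and IGFBP4, a binding protein for insulin-like growth factors that can also inhibit WNT signaling, by -1.88. All 17 genes of the cytoplasmic beta-catenin branch were tested, of which 13 were higher, 2 were lower (CTNNB1 and BTRC, each at -0.22) and 2 were not called, with a median of 0.27. The negative feedback regulators NKD1, AXIN2 and NKD2 changed most in that list, by 5.87, 4.64 and 4.27. RNA of CTNNB1, which encodes beta-catenin, was lower, and that of GSK3B was higher (0.27). For the proteins, the study reported more beta-catenin and less GSK3 beta in BT549 and U87MG cells with the compound. Protein was not measured in these libraries. Of the 12 TCF/LEF factors and co-factors, 5 were higher, 3 were lower and 4 were not called, with a median of 0.10, and TCF7, LEF1 and the co-activator BCL9 changed most, by 4.74, 4.08 and 1.36. In the planar polarity and calcium branches 19 of 24 genes were tested, with 5 higher, 8 lower, 6 not called and a median of -0.05. The largest changes there were those of the calcium-dependent kinase CAMK2A (1.64) and of the polarity genes PRICKLE2 (1.56) and PRICKLE1 (-1.20). Of the genes named from these lists, NOTUM, NKD1, NKD2 and CAMK2A had DMSO means of only 0.38, 0.24, 0.21 and 0.38 CPM. They passed the filter through their AS1842856 libraries, so their differences were partly set by the filter. In all, 48 of the 63 genes tested in these lists were called, where 56.0% of all genes were. The list medians lay on either side of the median of all genes, negative in the surface list and positive in the cytoplasmic list, and no test of a list was run.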

How the data were processed

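RNA-Seq was measured in 6 BT549 libraries, grouped by the treatment in the sample labels. The authors deposited raw counts per gene and, per library, FPKM values, scaled by the length of the gene and the size of the library. Base calling with CASAVA and mapping with STAR are given in the study's methods. The submitters' processing notes also name Bowtie 0.12.2 and GRCh38 with no role. The counting tool and use of strand are not given in the sources used here. Symbols and positions came from GENCODE release 29 (Ensembl 94, GRCh38), which held all 58735 gene identifiers. Upstream windows and promoter shares came from RefSeq.

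The counts were tested with edgeR 4.0.16 in R 4.3.3: filterByExpr (minimum count 10, minimum total 15), TMM scaling, glmQLFit with robust estimation and glmQLFTest, with Benjamini-Hochberg adjustment over 14338 genes holding 99.9% of the counts. The common biological coefficient of variation was 0.0374. Standard errors are the log2 fold change divided by the square root of F, and intervals are at 95%. Intervals and limits cover counting and library spread, and reads were not marked as single molecules, so they are not independent. Alternatives were DESeq2 1.42.0, limma-trend (limma 3.58.1) on FPKM with a pseudocount of 1 or 0.1 before log2, with a minimum mean FPKM of 0.5 or, for the pseudocount of 1, none, other scalings and filters, a replicate block and each library left out. Scripts were tested on simulated data.

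The members, lists and tests were chosen with earlier results of these data known. Every member that passed the filter was named, as was every other member with over 3 counts in a library, and the 3 largest called changes of each other list.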

Additional observations from a re-analysis of the deposited data

How the results depend on the processing

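Of 30 genes tested, 21 were called. Scaling by library totals, scaling by DESeq2's size factors and no filter on low counts also called 21. A mean of at least 50 counts called 19, DESeq2 called 17, and limma on FPKM called 16. With each library left out, 19 to 23 were called. The count of changes of 1 or more in log2 size, 11 here, was 7 on log2(FPKM + 1) with and without a filter, and 9 on log2(FPKM + 0.1) and with a mean of at least 50 counts. WNT2B, FRZB, DKK2, KREMEN1 and KREMEN2 gave no value under that count filter or the filtered FPKM fits. With each library left out the count of large changes ran from 10 to 13. The count of called genes in the other pathway lists, 48, ran from 36 to 48.

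FZD6 was the only gene whose log2 fold change turned in sign, to 0.0022 under DESeq2's size factors and between -0.058 and 0.036 with each library left out, and it was never called. DESeq2 did not call WNT3 (adjusted p = 0.0976), FZD1 (0.0741), FZD5 (0.0515) or ROR1 (0.0582). The limma fits on FPKM did not call FZD1 (0.0542 to 0.0869), FZD5 (0.122 to 0.167) or ROR1 (0.0525 to 0.0561), and with no filter also not WNT3 (0.0821) or WNT2B (0.0946). The cause was not tested. The shares of WNT5A, WNT5B, WNT7B, FZD2, FZD6 and FZD7 were recomputed with CPM per kilobase in place of FPKM and with a library left out. They moved by less than the replicate spread, but these checks say little about the shares. CPM per kilobase uses the same counts, and its lengths differ from those behind FPKM by a constant factor (1.005), which cancels. Leaving out 1 of 3 libraries moves a mean by less than their SD in any case.

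Same-lettered replicates did not deviate together (correlations 0.042, -0.012 and -0.0033 for A, B and C), so the letters were not taken as pairs. A replicate block called 21 genes, 11 of them with a log2 change of 1 or more, and 46 in the other lists. At 15289500 to 22981832 counts a library, changes of genes under about 1 CPM were poorly resolved.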
